A study of Mus musculus with 6 samples.

Results

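The AP1 subunits and closely related basic leucine zipper (bZIP) factors formed the group of genes described here. It held 10 genes, namely *Jun*, *Junb*, *Jund*, *Fos*, *Fosb*, *Fosl1*, *Fosl2*, *Atf3*, *Jdp2* and *Batf*. They were chosen by symbol, each from the table entry that names it, out of 37753 entries with expression values. RNA-seq of mammary epithelial cells (MEC) was compared with RNA-seq of JNK-deficient tumor cell lines (MEKO), with 3 libraries in each group. The MEC were primary cultures, each pooled from 3 to 5 virgin C57/Bl6J females of 10 to 12 weeks that carry WAPCre+ and no deleted JNK gene. Cells were plated on collagen I in medium with 5% serum, EGF and insulin, and RNA was taken close to confluence. The MEKO lines, numbered 199, 233 and 336, came from breast tumors of C57/Bl6J mice of genotype Mapk8KO Mapk9KO Cre+. The age of the tumor-bearing mice is not given in the labels, but the study reports palpable tumors of this genotype at a far higher median age than that of the MEC donors. These lines went through 2 passages on collagen I before standard dishes, and the labels do not say whether a line is 1 clone. Both groups carry Cre recombinase under the *Wap* promoter, which is active in secretory luminal epithelium and is induced by lactation. The MEC came from virgin females, whereas the study describes its MEKO tumors as arising in parous mice. The medium that the study lists for the tumor lines names serum but neither EGF nor insulin. JNK genotype, age of the mice, parity, tumor origin, time in culture and medium changed together between the groups, and their parts cannot be told apart.

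AP1 is a dimer. JUN proteins pair with each other or with FOS proteins, whereas FOS proteins require a JUN partner to bind DNA, and the dimers read the same short DNA element with different strength. JUN and FOS are strong activators induced within minutes by growth factors and stress, JUNB and JUND are weaker activators in many settings, and FOSL1 (FRA1) and FOSL2 (FRA2) lack the strong activation domain of FOS. JNK phosphorylates the activation domain of JUN and also acts on JUND and on ATF2, which pairs with JUN at the *Jun* promoter. ATF3 and JDP2 are related factors that often repress the same elements, and BATF is an inhibitory partner of JUN best known in lymphocytes.

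The targeted genes were examined as a check of the labels. *Mapk8* was between 19.2 and 25.1 FPKM (fragments scaled by transcript length and library size) in MEC and between 1.37 and 5.93 FPKM in MEKO. *Mapk9* was between 21.5 and 24.4 FPKM in MEC and between 3.07 and 7.62 FPKM in MEKO. Relative depth, read from the smallest values, was 0.92 to 1.3 times that of MEC 1, and the number of reads is unknown. No cell type list had a member higher in the lines, called (2.64% of all tested entries) or at an unadjusted p under 0.05. Of 14 luminal markers tested 8 were called lower (4 without MEC 1 or without MEC 2), where 7.26% of all tested entries were. *Krt8* was still 230 to 539 FPKM and *Krt18* 197 to 1181 FPKM in the lines. *Pgr* was listed at 0 in all 3 lines, and *Elf5* was at most 0.461 FPKM there. Both passed the filter at a mean of 1 FPKM through their MEC values alone and so had to differ. The summed basal markers were 1960 to 3718 FPKM in MEC and 2483 FPKM in line 199, against 17.5 FPKM in line 233 and 63.0 FPKM in line 336. Basal *Acta2* and *Tagln* followed this split, with 719 and 184 FPKM in line 199 and at most 1.46 FPKM in the other lines. Both were still below every MEC library in line 199, against 736 to 1452 FPKM and 361 to 792 FPKM. *Krt5*, *Krt14* and *Trp63* were above every MEC library in line 199, and *Krt17* was within their range. *Cnn1*, *Lamb3*, *Myh11* and *Oxtr* were below every MEC library there, with *Myh11* at 0.0812 FPKM and *Oxtr* at 0.0125 FPKM. The summed fibroblast markers split likewise, with 744 to 1074 FPKM in MEC, 1728 FPKM in line 199 and 21.7 and 22.9 FPKM in lines 233 and 336. Single fibroblast markers were divided in line 199. There *Col1a1*, *Col1a2*, *Col3a1*, *Col5a1*, *Pdgfra* and *Pdgfrb* were above every MEC library, and *Postn* was within their range. *Dcn*, *Lum*, *Fap*, *Thy1* and *Fn1* were below every MEC library, *Dcn* at 0.311 FPKM against 3.29 to 6.62 FPKM and *Fn1* at 246 FPKM against 294 to 505 FPKM. *Fn1* and *Postn* were the most abundant of these markers within MEC, while in line 199 *Col1a1*, chosen after its values were seen, was 600 FPKM, against 44.2 to 74.7 FPKM in MEC. Of 10 basal markers tested 3 were called lower, and of 9 fibroblast markers 1, the latter near the 7.26% of all tested entries. These counts were 9 and 8 without line 199 and 1 and 0 without MEC 1 or without MEC 2. Of the genes called with all libraries in, *Myh11*, *Oxtr* and *Dcn* passed the filter through their MEC values alone and so had to differ. None of the 4 endothelial or 2 adipocyte markers tested was called by limma, although 3 and 1 of them were lower at an unadjusted p under 0.05 and as many were called without MEC 3. The endothelial sum was 22.7 and 27.5 FPKM in MEC 1 and MEC 2, 2.93 FPKM in MEC 3 and at most 2.18 FPKM in the lines. *Emcn* and *Pecam1*, the markers with the highest means, were at most 1.58 and 0.249 FPKM in the lines. The adipocyte sum, mostly *Pnpla2* followed by *Fabp4*, overlapped between the groups.

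All 10 factors were detected in MEC, and the change in the tumor lines was uneven among them. Values of *Jun*, *Fos*, *Atf3* and *Batf* fell, *Fosl1* and *Jdp2* were higher in every line than in every MEC library without passing the adjusted test, and *Junb* remained the most abundant member in every library. A gene was called with an adjusted p under 0.05 (limma, Benjamini-Hochberg over 12461 tested entries) and a log2 fold change beyond 0.75 in either direction, on the log2(FPKM + 1) scale. By this rule 4 of the 10 members were called lower, where 7.26% of all tested entries were. None was called higher, where 2.64% of all entries were. At an unadjusted limma p under 0.05, 2 members were higher and 5 lower. Of the 12461 tested entries, 3509 were under that p in either direction. In 5 members every line was below every MEC library (18.7% of all entries), in 2 members every line was above (18.5% of all entries), and in 3 members the groups overlapped. The median log2 fold change of the members was -0.76, beside 0.01 over all entries. *Batf* passed the filter at a mean of 1 FPKM through its MEC values alone and so had to differ. Of the other 9 members, 3 were called lower. The count depended on single MEC libraries. It was 1 (*Jun*) without MEC 1, 2 (*Jun* and *Fos*) without MEC 2 and 3 (*Jun*, *Fos* and *Atf3*) without MEC 3, while it was 5 without line 336, where *Jund* was added. These are bulk libraries, in which fewer cells of one type and less RNA per cell cannot be told apart.

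**Figure D1:**
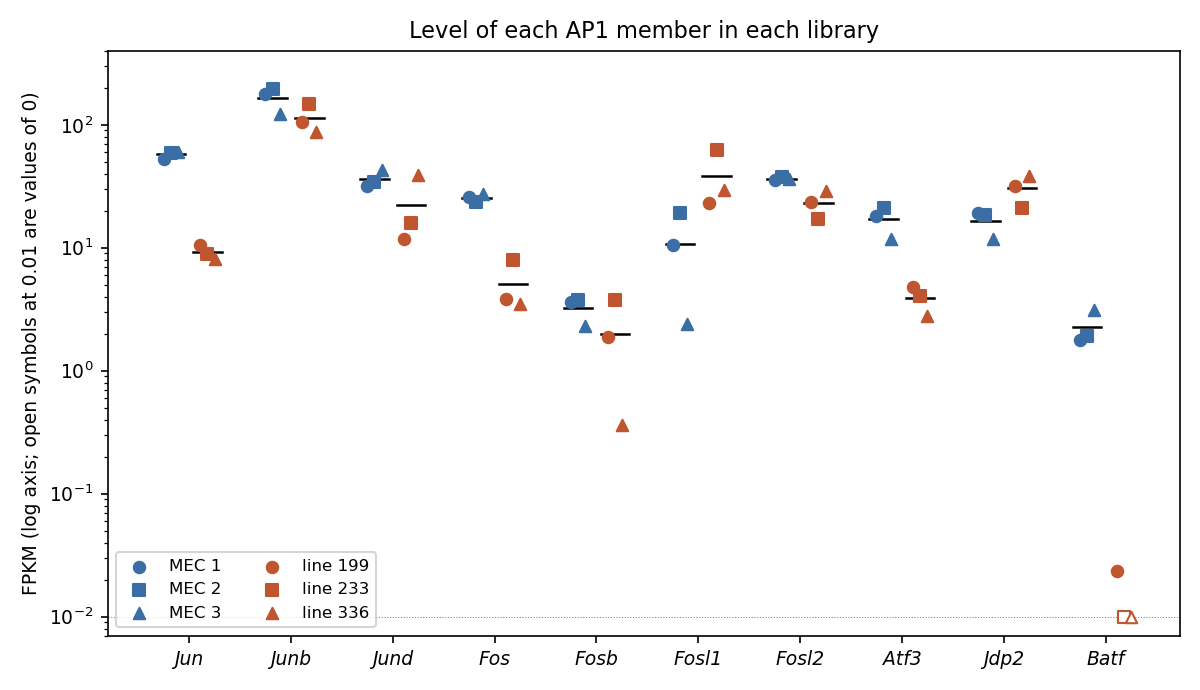
FPKM of each AP1 member (horizontal axis) in each of the 6 libraries, on a log axis, with MEC in blue, MEKO lines in orange and a black bar at the group mean where no library is at 0. The *Jun*, *Fos*, *Atf3* and *Batf* points of the lines lie below all MEC points, those of *Fosl1* and *Jdp2* lie above, and *Batf* is at 0 in lines 233 and 336 (open symbols).

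*Jun* was the only JUN gene called lower with all libraries in (chromosome 4, 95049034 to 95052222, minus strand, a single-exon gene, GRCm38). *Jun* was 53.1, 58.9 and 60.3 FPKM in MEC 1, 2 and 3 and 10.5, 8.91 and 8.15 FPKM in lines 199, 233 and 336. The groups lay far apart and each was tight, so that every line held between 14.2% and 18.2% of the MEC mean. The difference in log2 expression was -2.53 with a standard error of 0.15 (adjusted p = 0.000927 by limma), and *Jun* was called in all 14 alternative analyses. The median log2 difference over the 704 tested genes of chromosome 4 was between -0.37 and -0.24 in the lines, a measure chosen after its values were seen. Over all tested protein-coding genes this median was at most 0.02. It was 0.25 to 0.37 on chromosome 5, whose member *Fosl2* was lower in every line. On chromosome 19, whose member *Fosl1* was higher in every line, it was 0.05 to 0.26. The part of such shifts in the member results was not tested. An annotated antisense transcript, *Junos*, shares 7.28% of the exonic bases of *Jun* and has no entry of its own.

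*Junb* and *Jund*, the other JUN partners available to FOS proteins, did not pass the test. *Junb* (chromosome 8, 84974484 to 84978718, minus strand) was 177, 194 and 123 FPKM in MEC and 106, 148 and 86.8 FPKM in the lines. Lines 199 and 336 lay below all MEC libraries and line 233 lay within their range. The log2 fold change was -0.54 with a 95% interval of -1.17 to 0.09 (limma adjusted p = 0.231). *Jund* (chromosome 8, 70698949 to 70700616, plus strand, a single-exon gene) was 31.9, 34.2 and 42.7 FPKM in MEC and 11.8, 16.0 and 39.0 FPKM in the lines. Lines 199 and 233 were low, whereas line 336 was within the MEC range. For *Jund* the log2 fold change was -0.85 with a 95% interval of -1.86 to 0.17 (limma adjusted p = 0.243). Without line 336 it was -1.33 and *Jund* was called (limma adjusted p = 0.029). *Gm11175*, annotated on the opposite strand, shares 52.6% of the exonic bases of *Jund*, and the sources used here do not say whether strand was used in counting. Its values moved with *Jund*, at 115, 134 and 141 FPKM in MEC and 47.8, 57.6 and 152 FPKM in the lines. Reads of these overlapping genes cannot be told apart without strand, so the value of *Jund* is uncertain to that extent. *Junb* shares 7.52% of its exonic bases with *Prdx2*, which was not called (log2 fold change -0.22).

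The FOS genes did not share 1 direction. *Fos* (chromosome 12, 85473890 to 85477273, plus strand) was 26.0, 23.4 and 27.2 FPKM in MEC and 3.83, 8.02 and 3.50 FPKM in the lines. Line 233 kept the most *Fos*, and the groups did not overlap. The difference was -2.19 on the log2 scale with a standard error of 0.29 (adjusted p = 0.00903 by limma). The call was lost when MEC 1 was left out, with an adjusted p of 0.0561 at a log2 fold change of -2.17, and adjusted p was 0.00283 to 0.0561 over the alternatives. *Fosb* (chromosome 7, 19302696 to 19310051, minus strand) is another early response gene that is close to *Fos* in structure. Its levels were low, at 3.60, 3.77 and 2.31 FPKM in MEC and 1.90, 3.73 and 0.361 FPKM in the lines. Line 336 had least and line 233 was at the MEC level, and the groups overlapped (log2 fold change -0.65, 95% interval -1.79 to 0.48, limma adjusted p = 0.402).

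*Fosl1* had the largest positive difference among the members. It lies on chromosome 19 (5447547 to 5455946, plus strand) and encodes FRA1, a FOS protein linked to migration and to late, sustained ERK signaling. *Fosl1* was 10.4, 19.3 and 2.38 FPKM in MEC and 23.2, 62.6 and 29.2 FPKM in the lines. Every line exceeded every MEC library, but the spread inside each group was wide, with MEC 3 the lowest and line 233 the highest. The mean was 10.7 ± 8.48 FPKM in MEC and 38.4 ± 21.2 FPKM in MEKO (SD, n = 3), a ratio of 3.58. This gave a log2 fold change of 1.96 with a 95% interval of 0.28 to 3.65, which did not pass (limma adjusted p = 0.132). Over 14 alternatives *Fosl1* was higher in the lines each time and never called, with log2 fold changes of 1.24 to 2.53 and adjusted p of 0.0971 to 0.26. The lowest, 1.24, came without MEC 3, the preparation that also had the lowest endothelial sum, and the part of that in the result was not tested. *Ccdc85b*, on the opposite strand, shares 57.2% of the exonic bases of *Fosl1*. *Ccdc85b* itself was 15.2, 17.2 and 11.9 FPKM in MEC and 24.9, 20.6 and 33.4 FPKM in the lines. It was thus also higher in every line, with a log2 fold change of 0.78 (adjusted p = 0.0853 by limma), and line 336 had its highest value where *Fosl1* peaked in line 233. Without strand, reads of the shared bases could have been counted for either gene, and their part in the *Fosl1* difference was not tested.

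*Fosl2* behaved differently from its paralog (chromosome 5, 32135801 to 32157842, plus strand). It encodes FRA2, and it was the leading FOS gene of MEC at a near-constant 35.7, 37.3 and 36.5 FPKM. In the lines it was 23.6, 17.1 and 28.7 FPKM. All lines were below all MEC libraries, and the log2 fold change was -0.67 with a 95% interval of -1.16 to -0.17 (limma adjusted p = 0.0956). No alternative called it. With sample weights the adjusted p was 0.0324, but the log2 fold change of -0.71 was short of the 0.75 required.

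The related factors *Atf3*, *Jdp2* and *Batf* also differed from each other. *Atf3* (chromosome 1, 191170296 to 191218039, minus strand), a stress-induced repressor, was 18.2, 21.1 and 11.7 FPKM in MEC and 4.80, 4.06 and 2.78 FPKM in the lines. Every line was below every MEC library, of which MEC 3 was lowest. The mean fell from 17.0 ± 4.82 to 3.88 ± 1.02 FPKM (SD, n = 3), a log2 difference of -1.87 with a standard error of 0.28 (adjusted p = 0.0129 by limma). The adjusted p was 0.0728 without MEC 1 and 0.0639 without MEC 2, and between 0.00295 and 0.0321 in the other alternatives.

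*Jdp2* (chromosome 12, 85599027 to 85639878, plus strand) encodes a JUN partner that recruits histone deacetylases and competes with FOS for the same partner. *Jdp2* was 19.3, 18.3 and 11.8 FPKM in MEC and 31.9, 20.9 and 38.2 FPKM in the lines. The lowest line, 233, was only just above the highest MEC library, and line 336 was well above. The mean was 16.5 ± 4.06 FPKM in MEC and 30.3 ± 8.76 FPKM in MEKO (SD, n = 3). Its log2 fold change of 0.83, with a 95% interval of 0.14 to 1.52, did not pass (limma adjusted p = 0.122). Its adjusted p was 0.0703 to 0.304 over 14 alternatives, with the same direction in each. The annotated transcript *Gm47863* shares 7.68% of the exonic bases of *Jdp2* and has no entry of its own.

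*Batf* (chromosome 12, 85686669 to 85709087, plus strand) was the lowest member. *Batf* was 1.77, 1.91 and 3.14 FPKM in MEC, 0.0234 FPKM in line 199 and listed at 0 in lines 233 and 336. The log2 fold change on the log2(FPKM + 1) scale was -1.68 (limma adjusted p = 0.0155), a scale that understates changes at such low levels. Without MEC 1 the adjusted p was 0.0748, and without MEC 2 or MEC 3 the gene was under the filter and untested. Some leukocyte markers were also lower. Of 12 such markers 5 were tested and 3 were called lower, *Lyz2*, *Cd14* and *Laptm5*, where 7.26% of all tested entries were. Only 1 of the list was called without any 1 of the MEC libraries or of lines 199 and 233. *Lyz2* and *Laptm5*, like *Batf*, passed the filter through their MEC values alone and so had to differ. The summed level of the 12 markers was 112 to 143 FPKM in MEC and 7.68 to 62.3 FPKM in the lines. *Lyz2*, like *Batf*, was highest in MEC 3, with 16.5, 19.6 and 32.9 FPKM in MEC and at most 0.0182 FPKM in the lines, whereas *Cd14* was lowest in MEC 3, at 64.7 FPKM. *Cd68* was not called (log2 fold change -0.04), with 3.46 to 6.59 FPKM in MEC and 0.771, 2.73 and 23.5 FPKM in the lines. The defining gene *Ptprc* was under 1 FPKM in every library, at most 0.399 FPKM, and *Cd3g* was at 0 in all libraries. The part of leukocyte RNA in the *Batf* result was not tested.

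**Figure D2:**
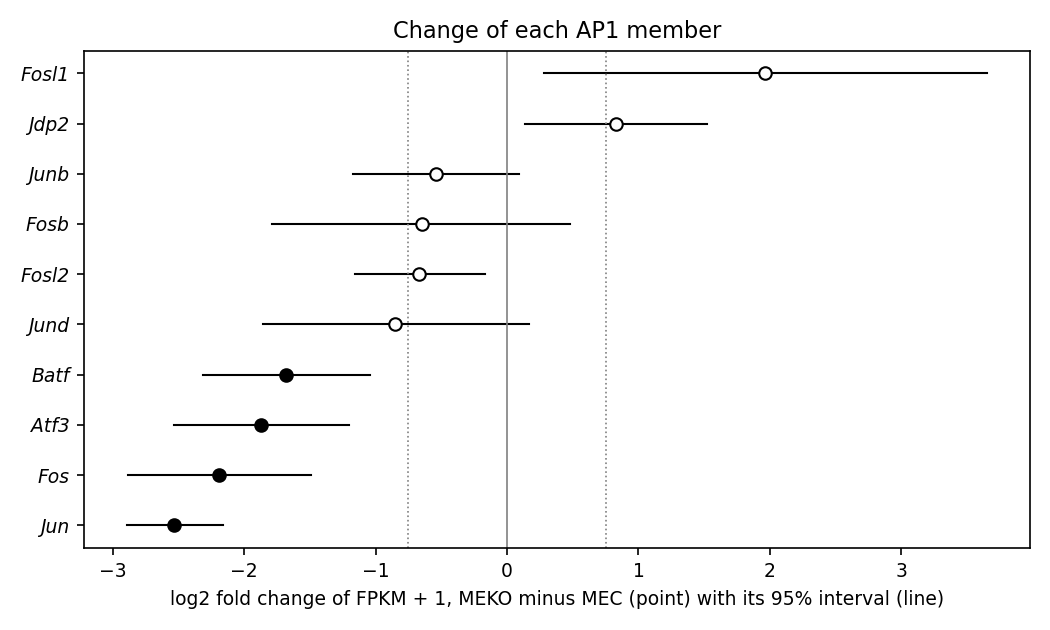
log2 fold change of FPKM + 1 (MEKO minus MEC, horizontal axis) for each AP1 member, with its 95% interval from limma as a line and dotted lines at the fold-change threshold of 0.75 in either direction. Filled points (*Jun*, *Fos*, *Atf3*, *Batf*) passed the adjusted test and open points did not, and the intervals of *Fosl1*, *Jdp2* and *Fosl2* exclude 0 while those of *Junb*, *Jund* and *Fosb* include it.

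In an exact permutation test over libraries (two-sided), every member whose groups did not overlap had p = 0.1, which is the lowest value possible with 3 libraries in each group. The exact permutation p was 0.2 for *Junb* and 0.3 for *Jund* and *Fosb*.

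The subunit mix was described as each gene's share of the summed FPKM of its family, since FPKM is scaled by transcript length. Opposite-strand genes share 57.2% of the exonic bases of *Fosl1* and 52.6% of those of *Jund*. The shares, ratios and ranks that involve these 2 genes are therefore uncertain to that extent. The mix is one of RNA, and protein was not measured. These shares were not tested. In the JUN family, *Jun* made up 20.3%, 20.5% and 26.7% of the sum in MEC and 8.19%, 5.17% and 6.09% in the lines. *Jun* thus went from 22.5% ± 3.62 to 6.48% ± 1.55 (SD, n = 3) with no overlap. *Junb* made up 67.5%, 67.6% and 54.4% in MEC and 82.6%, 85.6% and 64.8% in the lines, where the groups overlapped. The share of *Jund* was 12.2%, 11.9% and 18.9% in MEC and 9.21%, 9.26% and 29.1% in the lines, also overlapping. *Junb* was thus the majority of JUN family RNA in every library, and line 336 held a larger share of *Jund* than any other library. The ratio of *Junb* to *Jun* was 2.04 to 3.33 in MEC and 10.1 to 16.6 in the lines. *Jun* exceeded *Jund* in every MEC library, with a ratio of 1.41 to 1.72, and was below it in every line, with a ratio of 0.209 to 0.889.

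The FOS family was led by *Fosl2* in every MEC library and by *Fosl1* in line 233, while lines 199 and 336 had nearly equal amounts of both, with *Fosl1* to *Fosl2* ratios of 0.983 and 1.02. *Fos* made up 34.3%, 27.9% and 39.8% of the family's sum in MEC and 7.29%, 8.77% and 5.67% in the lines. *Fosl1* made up 13.8%, 23.1% and 3.48% in MEC and 44.2%, 68.5% and 47.3% in the lines. Neither share overlapped between the groups, and the mean share of *Fosl1* was 13.4% ± 9.80 in MEC and 53.3% ± 13.2 in MEKO (SD, n = 3). *Fosl2* made up 47.1%, 44.5% and 53.4% in MEC and 44.9%, 18.7% and 46.4% in the lines. Its share was kept in lines 199 and 336 and was low in line 233, the line with most *Fosl1*. *Fosb* never exceeded 4.76%. The ratio of *Fosl1* to *Fos* was 0.402, 0.826 and 0.0875 in MEC and 6.06, 7.81 and 8.34 in the lines.

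**Figure D3:**
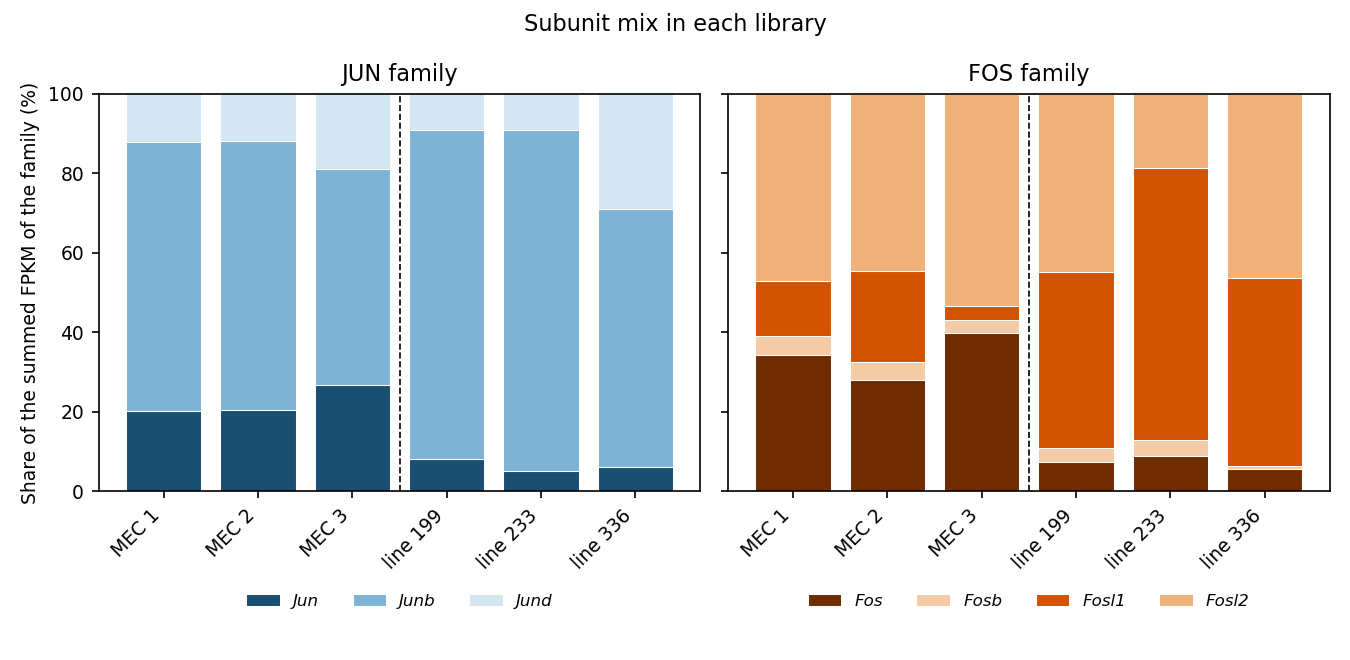
Share of the summed FPKM of the JUN family (left) and FOS family (right) held by each gene, in percent, for 3 MEC libraries and 3 MEKO lines to the right of the dashed line. The *Jun* and *Fos* segments are smaller in every line than in every MEC library, and the *Fosl1* segment is larger, from 44.2% to 68.5% in the lines.

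The balance between the families was also compared. The summed JUN family was 262, 287 and 226 FPKM in MEC and 128, 172 and 134 FPKM in the lines, lower in every line. The summed FOS family was 75.7, 83.9 and 68.4 FPKM in MEC and 52.6, 91.5 and 61.7 FPKM in the lines, which overlapped. The ratio of JUN to FOS family RNA was 3.40 ± 0.0794 in MEC and 2.16 ± 0.275 in MEKO (SD, n = 3), and no line reached a MEC value. JUN genes still exceeded FOS genes in every library. Between the repressors, the ratio of *Jdp2* to *Atf3* was close to even in MEC, at 0.868 to 1.06, and 5.15 to 13.7 in the lines. Of the sum of all 10 members, *Jdp2* held 3.68% to 5.12% in MEC and 7.24% to 16.1% in the lines, and *Fosl1* 0.740% to 4.69% and 10.7% to 21.7%.

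**Figure D4:**
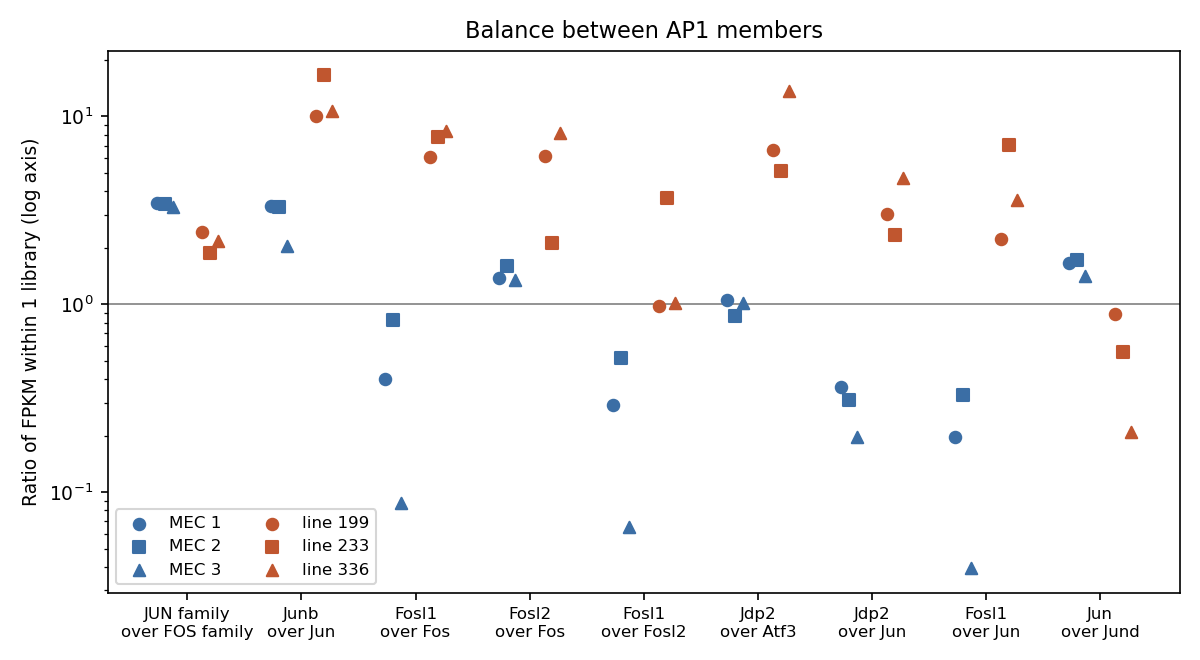
Ratio between FPKM values of AP1 members within 1 library (vertical log axis) for 9 comparisons, with MEC in blue and MEKO lines in orange. In each comparison the groups do not overlap. This had to be so for *Fosl1* to *Fos*, *Fosl1* to *Fosl2*, *Jdp2* to *Atf3*, *Jdp2* to *Jun* and *Fosl1* to *Jun*. In these the first gene was higher, and the second lower, in every line than in every MEC library. The ratios of *Fosl1* to *Fos*, *Jdp2* to *Jun* and *Fosl1* to *Jun* are below 1 in every MEC library and above 1 in every line.

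Ranked by mean level, the order in MEC was *Junb*, *Jun*, *Fosl2*, *Jund*, *Fos*, *Atf3*, *Jdp2*, *Fosl1*, *Fosb* and *Batf*. The ranges of *Fosl2* and *Jund* overlapped, as did those of each neighbouring pair from *Atf3* down. In the lines the order was *Junb*, *Fosl1*, *Jdp2*, *Fosl2*, *Jund*, *Jun*, *Fos*, *Atf3*, *Fosb* and *Batf*. There the neighbours from *Fosl1* to *Jund* were not separated by their ranges, and neither were those from *Fos* to *Fosb*. *Jun* went from rank 2 to rank 6 and *Fosl1* from rank 8 to rank 2. The lines also differed in their repertoire. Line 233 had the most *Fosl1*, *Fos* and *Fosb* of the lines and the least *Fosl2* and *Jdp2*, while line 336 had the most *Jund* and *Jdp2*.

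The promoters of the 3 called members that were expressed above 1 FPKM in every library are shown, since these genes are themselves known to respond to bZIP factors. The windows cover 250 bases before to 50 bases after the RefSeq start (build GRCm38.p6), 5′ to 3′ on the strand of the gene. Capitals mark a motif that was found.
Jun promoter, chr4:95052173-95052472, minus strand: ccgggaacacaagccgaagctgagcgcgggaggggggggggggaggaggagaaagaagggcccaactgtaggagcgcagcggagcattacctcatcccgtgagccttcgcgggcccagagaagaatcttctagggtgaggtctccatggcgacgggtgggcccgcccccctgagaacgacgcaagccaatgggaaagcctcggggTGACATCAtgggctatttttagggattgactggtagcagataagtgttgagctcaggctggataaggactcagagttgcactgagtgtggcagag
Fos promoter, chr12:85473640-85473939, plus strand: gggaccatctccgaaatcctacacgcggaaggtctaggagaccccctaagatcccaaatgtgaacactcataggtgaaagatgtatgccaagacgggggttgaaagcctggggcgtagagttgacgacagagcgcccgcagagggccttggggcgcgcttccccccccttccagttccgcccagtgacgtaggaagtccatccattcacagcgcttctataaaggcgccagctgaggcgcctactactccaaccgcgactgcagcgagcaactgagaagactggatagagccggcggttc
Atf3 promoter, chr1:191183284-191183583, minus strand: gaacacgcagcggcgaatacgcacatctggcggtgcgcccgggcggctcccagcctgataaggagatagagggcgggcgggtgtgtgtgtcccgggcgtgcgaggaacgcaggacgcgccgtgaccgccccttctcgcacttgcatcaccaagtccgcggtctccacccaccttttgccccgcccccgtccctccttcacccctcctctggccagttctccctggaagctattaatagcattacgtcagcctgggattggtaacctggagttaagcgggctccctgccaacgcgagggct
Both strands were searched for the AP1 element TGAGTCA, the CRE element TGACGTCA, the *Jun*-type element TGACATCA and the serum response CArG box. Promoter sequences were matched for 9 of the 10 members. Within these windows only *Jun* held any of these letters, TGACATCA, which starts 45 bases before its RefSeq start. Bases outside the windows were not searched. The *Jund* window (70697489 to 70697788) ends before the annotated start of *Jund* at 70698949. The *Atf3* and *Fosl2* windows lie inside the annotated genes, and *Atf3* starts at 191218039. For these genes the search does not cover the annotated start. That motif was in 3.62% of 32851 promoters of the same length, TGAGTCA in 5.2%, TGACGTCA in 1.79% and the CArG box in 1.63%. None of these motifs contains another, and a match is a description of letters, not of binding.

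*Fos*, *Jdp2* and *Batf* lie in this order on chromosome 12, with 121.8 kb between *Fos* and *Jdp2* and 46.8 kb between *Jdp2* and *Batf*. Values of *Fos* and *Batf* fell, and *Jdp2*, which lies between them, was higher in every line. Within 500 kb of either side another 12 genes were tested. Of these, 4 were called lower (*Pgf*, *Tgfb3*, *Ift43* and *Ttll5*, named for lying in this window), where 7.26% of all tested entries were. None was called higher (2.64% of all entries) or higher in every line than in every MEC library (18.5% of all entries). The log2 fold changes of the 12 genes had a median of -0.29 and ran from -2.84 to 0.22, so *Jdp2* at 0.83 was above each. The median over the 380 tested genes of chromosome 12 was -0.20, -0.10 and 0.10 in lines 199, 233 and 336.

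**Figure D5:**
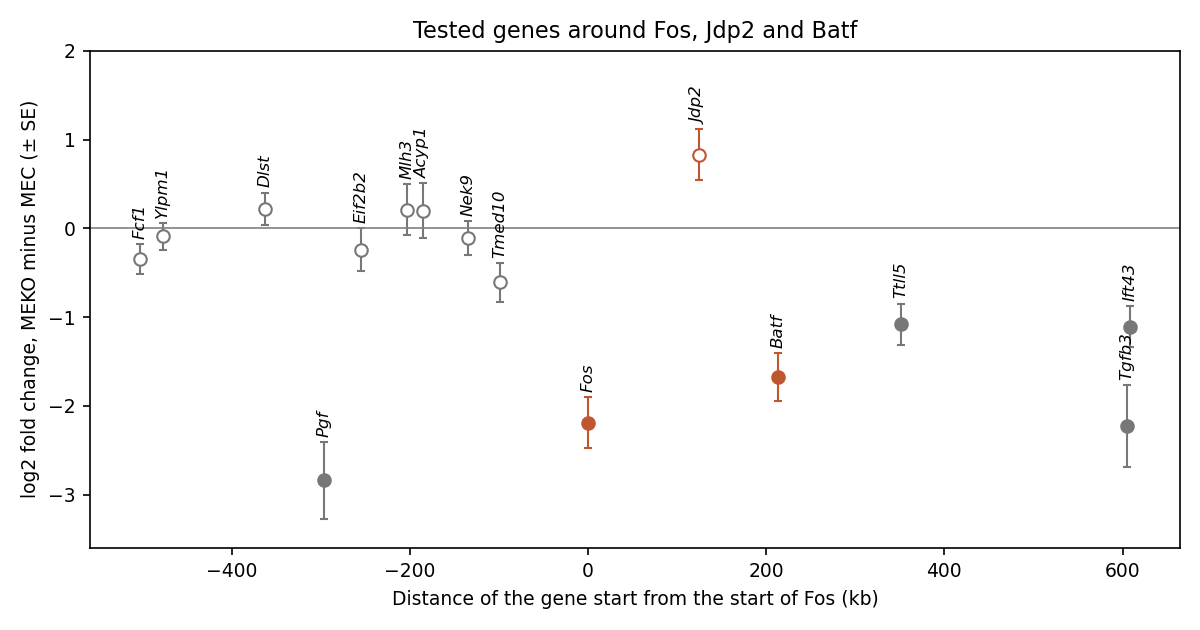
log2 fold change (MEKO minus MEC, with its standard error as a bar) of each tested gene around *Fos*, *Jdp2* and *Batf* against the distance of its start from that of *Fos* in kb. AP1 members are orange, other genes grey and called genes filled, and *Jdp2* is the highest point at 0.83.

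Other bZIP genes gave context for the members. Over all tested entries 7.26% were called lower and 2.64% higher, so a single call in the short lists below is near these shares. Of 13 tested ATF, MAF, CNC and BATF-type partners (19 listed) only *Nfe2l3*, a CNC factor, was called, with a log2 fold change of -2.12 (limma adjusted p = 0.00675). Of 20 tested genes of the CREB, C/EBP and other bZIP groups, 4 were called lower and none higher, with a median log2 fold change of -0.61. They were *Cebpd*, encoding C/EBP delta (-3.16), *Creb5* (-2.16), *Creb3l4* (-1.56) and *Xbp1*, a factor of the unfolded protein response (-0.77). None of these 4 was called when any 1 MEC library was left out, and 9 genes of that group were called lower without line 199. *Creb5* and *Creb3l4*, like *Batf*, passed the filter through their MEC values alone and so had to differ. Among 19 tested kinases and factors upstream of AP1, 3 were called lower and 1 higher. The lower genes were *Mapk8*, *Mapk9* and *Rps6ka1*, which encodes an RSK kinase (-1.35). *Mapk8* and *Mapk9* are the genes deleted in the lines, so only *Rps6ka1* was a lower call beyond the genotype. Without MEC 1 or MEC 2 none of this list was called in either direction, and without MEC 3 only 1 gene was, lower. The *Rps6ka1* paralog *Rps6ka2* rose (2.28 on the log2 scale, adjusted p = 0.0273 by limma), from 1.64 to 2.09 FPKM in MEC to 6.58 to 25.6 FPKM in the lines. This call was lost without any 1 of the MEC libraries and with no filter on low values. Of 10 tested genes for turnover of AP1 proteins and mRNA, 1 was called, *Zfp36l1*, encoding an AU-rich element binding protein (-1.81), and this call was lost without any 1 MEC library or line 233.

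Other immediate early genes changed in both directions. The counts of this and the next list stand beside 7.26% called lower and 2.64% called higher over all tested entries. Of 26 tested, 4 were called lower and 2 higher, with a median log2 fold change of -0.76. *Trib1* (-1.88), the MAP kinase phosphatase gene *Dusp1* (-1.72), *Arc* (-1.48) and *Ier3* (-1.47) fell. Of these, *Arc* passed the filter through its MEC values alone and so had to differ. *Klf4* (1.22) and *Myc* (1.03) rose, just past the threshold (limma adjusted p = 0.0487 and 0.0486), and neither was called without any 1 MEC library or line 233. Both calls were also lost with no filter on low values, with a filter at 5 FPKM and without the mean-variance trend. With a pseudocount of 0.1 only 1 gene of this list was called higher. Without MEC 1 or without MEC 2, 1 gene of this list was called lower. Of 25 tested genes that textbooks list as AP1 targets, 3 were called lower and 2 higher, with a median of -1.12. *Mmp9*, a gelatinase (-5.20), and the cornified envelope genes *Sprr1a* (-4.48) and *Ivl* (-2.38) fell, and the chromatin architecture gene *Hmga2* (5.03) and the receptor tyrosine kinase gene *Axl* (1.37) rose. Of these, *Ivl* passed the filter through its MEC values alone and so had to differ. Without MEC 1 or without MEC 2 there was 1 call in each direction. Without MEC 3 there were 4 lower and 1 higher, and without line 199 there were 6 lower and 4 higher. The calls in both directions came from limma adjusted over all tested entries, and 3 genes stand on more than 1 of the lists.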

How the data were processed

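RNA from 3 MEC cultures and 3 MEKO tumor cell lines was sequenced as 1 library each, and groups were taken from the sample titles and genotype labels. Separate cultures and lines are replicates, and no sequencing batch is given. Per the submitters' notes and the study's methods, reads were aligned to GRCm38 with Bowtie2 and TopHat2 2.0.14 and quantified with Cufflinks 2.2.1. The deposited table holds FPKM values, which the authors normalized for transcript length and library size. Read numbers are unknown, so no counting interval or detection floor was given, and the authors' Cuffdiff comparison, which needs reads, was not repeated. Whether counting used strand is not given in the sources used here.

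Of 37755 entries 2 hold no FPKM. Entries were split at commas, and each symbol was read from its entry of highest mean. Entries with a mean of at least 1 FPKM over the 6 libraries were tested with limma 3.58.1 in R 4.3.3 on log2(FPKM + 1), with the trend option of the empirical Bayes step and Benjamini-Hochberg adjustment, and this step was tested on simulated data. Single members were also tested by an exact permutation test (scipy 1.17.1, two-sided). Positions are from GENCODE M21 and promoters from RefSeq.

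The 10 members and the gene lists were chosen with earlier results of these data known. All members are named. Of every other list the named genes are among the 4 called members that changed most, besides the 2 highest cell type markers, *Mapk8* and *Mapk9*. Genes that overlap or neighbour a member, the markers *Ptprc*, *Cd3g*, *Cd68* and *Col1a1* and the chromosome medians were chosen after values were seen. Alternatives were a pseudocount of 0.1, no filter or a filter at 5 FPKM, quantile or upper-quartile scaling, no trend, sample weights, the log2 ratio of mean FPKM, summed entries and each library left out.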

Additional observations from a re-analysis of the deposited data

How the results depend on the processing

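The 10 members kept their direction in every alternative that gave them a value. *Jun* was called in each that gave a test, and *Junb*, *Fosb*, *Fosl1*, *Fosl2* and *Jdp2* in none. *Fosb* and *Batf* could not be tested with a filter at 5 FPKM, which left 3 members called lower. *Batf* was also under the filter of 1 FPKM without MEC 2 and without MEC 3, and its log2 ratio of mean FPKM was -8.186, since this ratio has no pseudocount. When single libraries were left out, the members called lower numbered 1 (without MEC 1) to 5 (without line 336). The log2 fold changes then ran from -1.329 to -0.506 for *Jund*, from -2.505 to -2.004 for *Fos*, from -2.101 to -1.695 for *Atf3* and from -1.784 to -1.669 for *Batf*. *Jund* gained its call without line 336, *Fos*, *Atf3* and *Batf* lost theirs without MEC 1 and *Atf3* without MEC 2, all with fewer libraries in 1 group.

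Over all entries, 1234 were called, 905 lower and 329 higher. These counts ran from 259 to 1966, from 211 to 1398 and from 48 to 568 with 1 library left out, lowest without MEC 1 and highest without line 199. A filter at 5 FPKM gave 738, with 501 lower, from fewer entries tested, and sample weights gave 1978, with 1378 lower and 600 higher. No paired analysis was possible because the groups share no replicate number. Read depth is unknown, so low values such as those of *Batf* and *Fosb* have the least known precision.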
